A study of Mus musculus with 8 samples.

Results

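Fos, Fosb, Jun and Junb were examined through 4 windows of the mouse genome (mm9), each set around its gene, and the Fos window was drawn to take in enhancers on both sides of it. The windows were 95000 bases of chromosome 12 for Fos, 25000 bases of chromosome 7 for Fosb, 35000 bases of chromosome 4 for Jun and 25000 bases of chromosome 8 for Junb. Of 11304 regions in the deposited count table, 8 overlapped a window by at least 1 base. Fos had 2, Fosb 1, Jun 1 and Junb 4, and they are numbered here along the chromosome. All listed peaks in the windows were used as well, between 38 and 97 per library.

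The assay was Sono-seq. Fixed chromatin is sheared by ultrasound and sequenced with no immunoprecipitation, and read pile-ups mark the stretches where it shears most easily, as open chromatin does. All 8 mice were male C57BL/6J, 2 months old, and had been handled daily for 3 days before the hippocampus was dissected. The conditioned group of 4 was dissected 30 min after a foot shock (2 s, 1.5 mA) that ended a 2.5 min stay in a chamber. The control group of 4 was handled, not trained, and dissected at the same time of day; no group carried a transgene or a drug. The whole hippocampus was used, so the share of cells with open chromatin and the degree of openness per cell cannot be told apart, and no marker of hippocampal cells was read, since no mm9 annotation was used here.

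The Fos and Jun proteins are leucine zipper transcription factors that pair with each other to form AP-1, which binds short sites in the promoters and enhancers of many genes. Fos proteins need a Jun partner, whereas Jun proteins can also pair among themselves. Their genes are immediate early genes. Calcium and kinase signals act on factors already present in the neuron, such as CREB and SRF, so transcription starts within minutes and without new protein. In the hippocampus Fos is widely used to mark neurons that were active during learning, and Fos transcription is known to draw on several enhancers that lie before and after the gene.

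The 250 bases before the annotated start of each gene (RefSeq, GRCm38.p6, the gene's own strand, 5′ to 3′) are shown because CREB and other factors are known to act there on these genes. Capitals mark the CRE core TGACG, the TATA box TATAAA, the GC box GGGCGG and, in Jun, the spaced site TGANNTCA, each searched on both strands.
Fos (chromosome 12): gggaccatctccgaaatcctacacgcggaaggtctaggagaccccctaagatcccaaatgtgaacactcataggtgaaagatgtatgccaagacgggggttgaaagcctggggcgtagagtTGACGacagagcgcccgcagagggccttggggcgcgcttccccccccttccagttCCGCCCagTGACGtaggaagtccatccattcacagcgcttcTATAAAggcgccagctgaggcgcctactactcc
Fosb (chromosome 7): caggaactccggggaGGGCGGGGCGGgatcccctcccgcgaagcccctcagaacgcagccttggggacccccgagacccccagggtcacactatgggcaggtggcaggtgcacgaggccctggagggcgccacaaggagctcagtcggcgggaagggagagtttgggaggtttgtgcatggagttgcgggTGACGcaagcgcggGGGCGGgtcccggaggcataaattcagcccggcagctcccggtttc
Jun (chromosome 4): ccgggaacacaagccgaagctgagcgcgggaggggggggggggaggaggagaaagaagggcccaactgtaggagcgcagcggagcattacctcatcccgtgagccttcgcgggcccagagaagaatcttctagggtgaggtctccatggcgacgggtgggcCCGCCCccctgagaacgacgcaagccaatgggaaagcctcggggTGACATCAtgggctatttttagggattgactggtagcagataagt
Junb (chromosome 8): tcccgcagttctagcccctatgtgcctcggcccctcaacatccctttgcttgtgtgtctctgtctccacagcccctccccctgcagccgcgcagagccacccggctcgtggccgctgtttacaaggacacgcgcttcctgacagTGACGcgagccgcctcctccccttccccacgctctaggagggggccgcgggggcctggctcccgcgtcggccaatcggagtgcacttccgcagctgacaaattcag
The CRE core, the part of the CREB site shared by most of its variants, was found in 3 of the 4 promoters. In Fos it lay at -129 and at -66, in Fosb at -60 and in Junb at -106, counted from the annotated start by the first base of the match. Of all 32851 promoters in the table, 17.8% held it in the same stretch. The GC box, a site of Sp factors, was found in Fos, Fosb and Jun (32.7% of all promoters), and in Fosb 2 of its 3 copies overlap by 1 base. The TATA box was found in Fos alone at -33 (12.4% of all promoters). Jun held the letters TGACATCA at -45, a match to TGANNTCA, which was added to the search after the sequences had been read (11.9% of all promoters). The full CRE (TGACGTCA, which contains the core; 1.55% of all promoters), the AP-1 site TGANTCA (6.75%) and the CArG box bound by SRF (1.47%) had no match in these stretches. Bases further before the start were not searched, so sites there would be missed. Of 13 listed AP-1 relatives 9 had a promoter in the table, and 4 of them held the CRE core (Jdp2, Batf, Atf3 and Mafk). Among 11 listed upstream regulators 10 were in the table and 3 held it. Which deposited region covers which promoter was not determined, because the sequences and the regions belong to different builds. On GRCm38.p6 the nearest protein-coding genes in order are Tmed10 and Jdp2 around Fos, Rtn2 and Ercc1 around Fosb, Mysm1 and Fggy around Jun, and Prdx2 and Hook2 around Junb, so a region in a window need not belong to the named gene.

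The libraries differed in how strong their peaks were. Total counts over the table ran from 36786183 to 83233550, most of which fell in 50 very high regions. A peak with the authors' z score of at least 30 was found in 24.3% and 25.5% of all regions in control replicates 1 and 3 and in 58.6% to 97.7% in the other 6 libraries. The 8 regions described here held 1239 to 11124 counts per library. Single counts ran from 22 to 3319, and counting error alone gives 22 a 95% exact Poisson interval of 13.8 to 33.3. Levels are given as CPM, the count divided by the library size in units of 1e6 reads after scaling by TMM, a method that equalises the bulk of regions. Because the scale differs with that choice, a CPM compares a region with the other regions of its library.

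The 8 regions differed in how many of the 8 libraries reached z 30 in them. Control replicates 1 and 3 did so in 2 and 3 of the 8 regions, and the part of library strength and region length was not tested. The Jun region (chromosome 4, 94716948 to 94719642, 2694 bases) and Junb region 2 (chromosome 8, 87499454 to 87502889, 3435 bases) reached z 30 in each of the 8 libraries, as did 561 regions of the table, or 4.96%. These were also the longest of the 8. The RefSeq genes themselves span 3187 bases for Jun and 1840 bases for Junb. The other 6 regions, of 491 to 1181 bases, reached that z in 4 to 6 libraries. Every library had at least 1 listed peak, strong or weak, in each of the 8 regions. Peaks are listed from z 5.00 upward, with 379249 to 983420 per library, and the share of all regions with such a peak in every library was not counted. Per kilobase of region, mean levels over the 8 libraries were 7.12 and 8.30 CPM per kb in Fos regions 1 and 2, 7.20 in Fosb, 6.09 in Jun, and 7.06, 6.34, 2.45 and 5.02 in Junb regions 1 to 4. Fos region 2 stood at percentile 52.3 of all regions by this level and Junb region 3 at percentile 3.33, so none of the 8 was among the densest of the list.

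**Figure D1:**
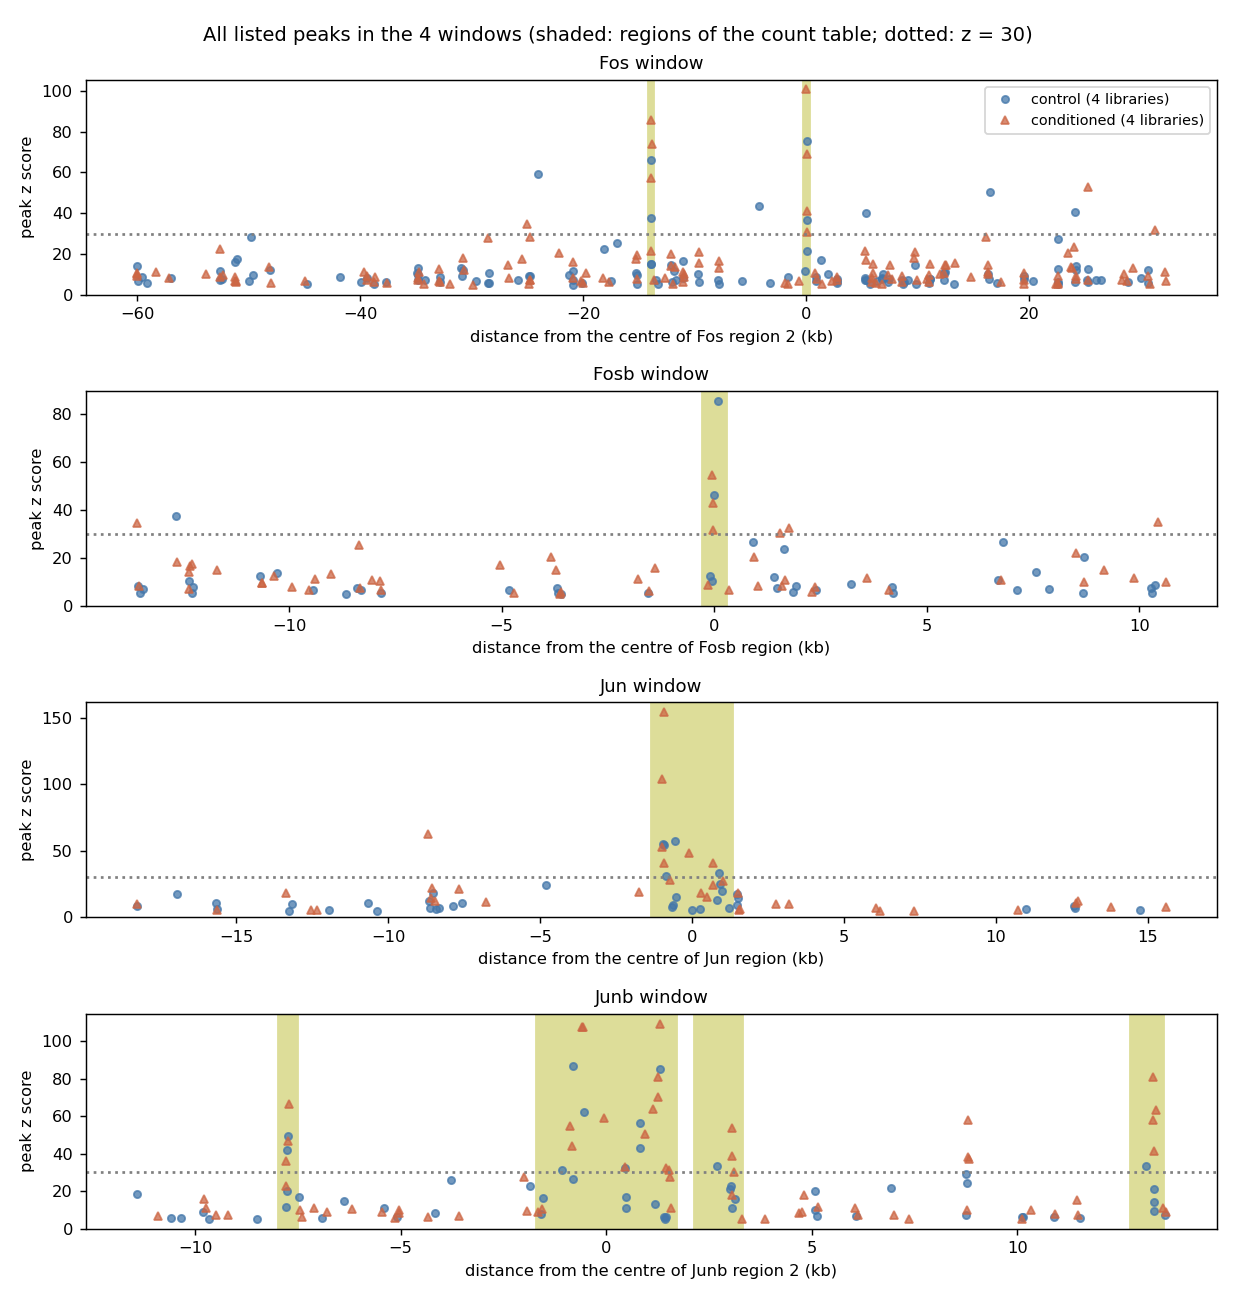
All listed peaks of the 8 libraries in the 4 windows, as z score of the peak (vertical axis) against distance in kb from the centre of the region with the highest mean CPM; circles are control and triangles conditioned libraries, bands are regions of the count table and the dotted line is z = 30. The tallest marks fall in the bands, and marks above the line outside the bands come mostly from 1 library at a place.

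Fos encodes an inducible partner of the AP-1 pair. Its window held 2 regions, 13282 bases apart, region 1 on chromosome 12 at 86812844 to 86813395 and region 2 at 86826677 to 86827355. Only peaks overlapping a region were read for it, so the region's own length bounds how far apart they can lie. The highest peak of each library began between 86813044 and 86813148 in region 1, a span of 104 bases, and between 86826863 and 86827074 in region 2. Region 1 had 2.19, 3.52, 2.03 and 6.98 CPM in the controls, in the order of replicates 1 to 4 used throughout, and 4.59, 2.54, 4.90 and 4.64 CPM in the conditioned libraries. Control replicate 4 was the highest library, and the groups overlapped. The means were 3.68 ± 2.30 CPM in control and 4.17 ± 1.09 CPM in conditioned libraries (SD, n = 4 each). The log2 fold change of conditioned over control was 0.17 (SE 0.52; edgeR adjusted p = 0.964). In region 2 the controls had 2.28, 9.24, 4.06 and 4.80 CPM and the conditioned libraries 7.70, 4.25, 3.54 and 9.14 CPM. The highest library was a control and the next a conditioned one, so the groups were interleaved. Their means of 5.09 ± 2.96 and 6.16 ± 2.69 CPM (SD, n = 4 each) gave a log2 fold change of 0.27 (SE 0.53; edgeR adjusted p = 0.950). Against control replicates 2 and 4 alone both estimates turned negative, at -0.35 and -0.20.

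The peak scores at Fos overlapped between the groups as well. In region 1 the highest z was 14.9, 37.8, 15.0 and 66.1 in controls and 57.3, 21.6, 73.8 and 85.8 in conditioned libraries. In region 2 it was 11.5, 75.5, 21.2 and 36.9 in controls and 68.9, 30.7, 41.2 and 101 in conditioned libraries. The mean z was higher after conditioning by 26.2 (SE 18.5; exact permutation p = 0.229) in region 1 and by 24.1 (SE 21.1; exact permutation p = 0.286) in region 2. Adjusted over all regions these values were 0.422 and 0.455. Between both Fos regions 12 clusters of peaks were listed, of which 7 came from 1 library each. The widest shared of these, at 86814654 to 86815504 and at 86815954 to 86816055, were present in 6 libraries each at z of at most 19.8 and 16.6. Only the cluster at 86822745 passed z 30 there, with 43.7 in control replicate 2 and no peak in the other 7 libraries.

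The Fos window also held 8 clusters that passed z 30 but overlapped no region of the table, and each rested on 1 library for that score. Those at 86801927, 86802995, 86822745 and 86858227 were listed in 1 library only. The others were shared, but weak outside that library. The cluster at 86850777 to 86851427 was listed in all 8 libraries, with z 40.6 in control replicate 4 and 6.33 to 23.5 in the rest. At 86843105 to 86843463 z was 50.5 in control replicate 2, 28.2 in conditioned replicate 4 and at most 14.4 in 5 further libraries. At 86852213 it was 53.1 in conditioned replicate 4 and at most 12.4 elsewhere, and at 86832277 it was 39.9 in control replicate 3 and at most 21.5 elsewhere. The remaining 93 clusters off the list reached at most 28.5, and 57 of all 101 off the list came from 1 library.

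Fosb encodes a Fos relative whose shortened splice form, delta FosB, is known to build up in neurons with repeated activity. Its region on chromosome 7 at 19893763 to 19894356 had 2.32, 1.20, 10.3 and 10.6 CPM in the controls. The conditioned libraries had 2.07, 2.04, 2.53 and 3.09 CPM. Control replicates 3 and 4 stood far above the other 6 libraries, and control replicate 2 was the lowest of all, so the groups overlapped. The means were 6.10 ± 5.03 CPM in control and 2.43 ± 0.489 CPM in conditioned libraries (SD, n = 4 each). The log2 fold change was -1.32 (SE 0.64; edgeR unadjusted p = 0.0565, adjusted p = 0.639), with conditioned libraries below control replicates 3 and 4 in 4 of 4 and above control replicate 2 in 4 of 4. Without control replicate 4 the estimate was -0.93, with region totals alone -0.34, with voom -0.46 and with the replicate block -0.83. Region totals alone also moved the median of all regions, from -0.049 to 0.75, so the -0.34 is on a shifted scale.

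The highest z at Fosb was 10.4, 12.6, 46.1 and 85.5 in controls and 31.8, 8.68, 42.8 and 54.6 in conditioned libraries. Control replicate 4 was the highest and conditioned replicate 2 the lowest, and conditioned replicate 4 was above control replicate 3. The mean difference of -4.16 (SE 20.2; exact permutation p = 0.800, adjusted p = 0.854) was the only one of the 8 below 0. A broader cluster began 267 bases beyond the region, at 19894623 to 19896447, and is not in the table. It was listed in all 8 libraries, at z 7.47, 26.8, 5.70 and 23.6 in controls and 10.8, 20.3, 32.5 and 30.4 in conditioned libraries. There control replicate 3 was the lowest library, although it was among the highest in the region next to it. Of the other 3 clusters off the list that passed z 30, those at 19880482 and 19904160 did so in a conditioned library (34.5 in replicate 1, 34.9 in replicate 3) and that at 19881410 in control replicate 3 (37.6).

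Jun encodes the founding Jun protein, a strong activator that can also be switched on by phosphorylation through the kinase JNK. Its region had 23.6, 10.5, 22.5 and 9.46 CPM in the controls and 10.1, 15.8, 19.4 and 19.8 CPM in the conditioned libraries. The controls fell into a high and a low pair, and all 4 conditioned libraries lay between the lowest and the highest control. The means of 16.5 ± 7.55 and 16.3 ± 4.47 CPM (SD, n = 4 each) gave a log2 fold change of -0.016 (SE 0.42; edgeR adjusted p = 0.998). The high pair was control replicates 1 and 3, the libraries with few strong peaks. Against control replicates 2 and 4 alone the log2 fold change was 0.69 (adjusted p = 0.637), and with libraries scaled by region totals alone it was 1.16 (adjusted p = 0.499), where that scaling moved the median of all regions from -0.049 to 0.75, so the direction at Jun depended on the scaling and on those libraries.

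The highest z at Jun was 33.4, 57.6, 54.8 and 55.0 in controls and 53.3, 41.2, 104 and 154 in conditioned libraries. Conditioned replicates 3 and 4 were above all controls, while conditioned replicates 1 and 2 were not. The difference of 37.9 (SE 26.4) had an exact permutation p of 0.286 and an adjusted p of 0.455. Taken as a percentile among all regions of the same library, the mean was 75.7 in control and 75.2 in conditioned libraries. The Jun region held peaks at 2 places, with their middles 1400 to 2000 bases apart. The left peak, beginning between 94717148 and 94717432, was the higher in 7 of 8 libraries, at z 31.3 to 154. The right peak ranged from 12.8 to 41.2 and was the higher only in control replicate 1, by 33.4 against 31.3. The mean z of the left peak was 49.7 ± 12.3 in control and 88.1 ± 51.6 in conditioned libraries, and that of the right peak 22.9 ± 8.70 and 26.9 ± 10.8 (SD, n = 4 each). Off the list, the Jun window had 1 cluster above z 30, at 94709530 to 94709968 and 6980 bases before the region. It was listed in all 8 libraries, with 62.3 in conditioned replicate 2 and 6.95 to 22.3 in the others.

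**Figure D2:**
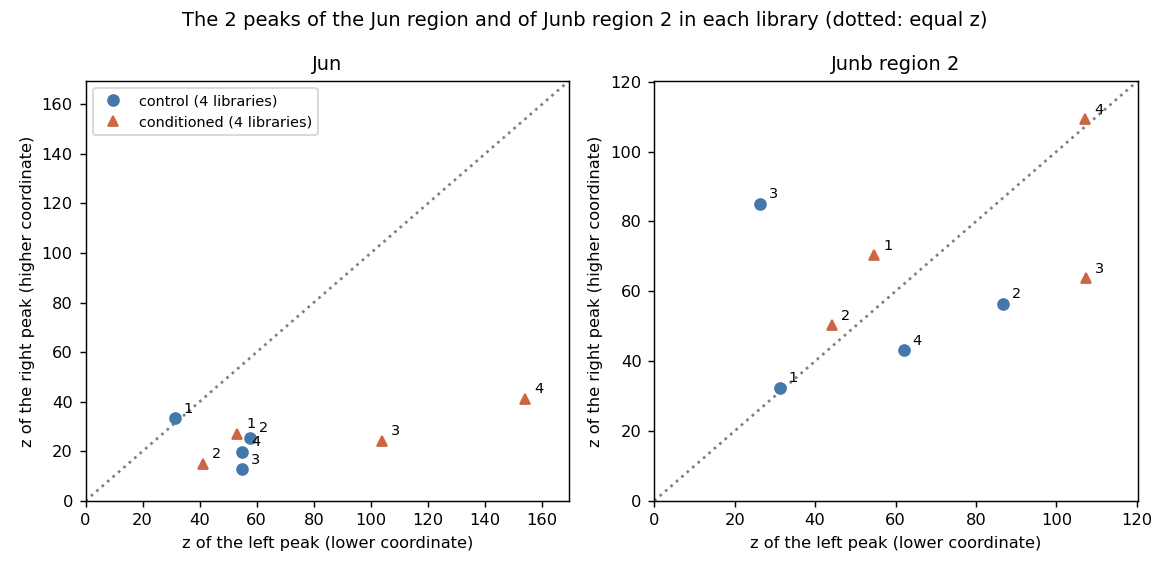
The z score of the left peak (horizontal axis) and of the right peak (vertical axis) of the Jun region and of Junb region 2 in each library, numbered by replicate; the dotted line marks equal scores. At Jun 7 of 8 libraries lie below the line, and at Junb region 2 the libraries lie on both sides of it, with 3 of 8 below.

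Junb encodes a Jun protein that is in many settings a weaker activator than Jun and can restrain it. Junb region 2, the region with the most counts of the 8, had 18.5, 19.8, 34.3 and 17.5 CPM in controls and 16.1, 22.1, 26.3 and 19.5 CPM in conditioned libraries. Control replicate 3 was the highest, and the other 7 libraries ran from 16.1 to 26.3 CPM. The means of 22.5 ± 7.91 and 21.0 ± 4.31 CPM (SD, n = 4 each) gave a log2 fold change of -0.10 (SE 0.37; edgeR adjusted p = 0.972). With region totals alone it was 0.81 (adjusted p = 0.566). The highest z was 32.4, 86.8, 85.1 and 62.0 in controls and 70.3, 50.2, 107 and 109 in conditioned libraries, a difference of 17.7 (SE 19.3; exact permutation p = 0.371, adjusted p = 0.516). Like Jun, it held peaks at 2 places, with middles 1350 to 2150 bases apart, but here neither prevailed. The left peak was the higher in 3 of 8 libraries, and its z of 26.3 to 107 was close in range to the 32.4 to 109 of the right peak.

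Junb region 3 began 419 bases beyond region 2, at 87503308 to 87504489. It was the least dense of the 8, with 2.83, 3.09, 2.03 and 3.33 CPM in controls and 3.01, 2.09, 4.56 and 2.20 CPM in conditioned libraries. The groups overlapped, and the log2 fold change was 0.071 (SE 0.49; edgeR adjusted p = 0.989). Its highest z was 11.2 to 33.4 in controls and 18.0 to 53.6 in conditioned libraries (difference 14.6, SE 8.88; exact permutation p = 0.171, adjusted p = 0.396).

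Junb region 1 lay 5774 bases before region 2, at 87493189 to 87493680. It had 2.60, 2.28, 1.17 and 12.8 CPM in controls and 1.99, 1.61, 2.33 and 3.00 CPM in conditioned libraries. Control replicate 4 alone was high, and without it the remaining libraries ran from 1.17 to 3.00 CPM. The log2 fold change was -1.08 (SE 0.67; edgeR unadjusted p = 0.125, adjusted p = 0.730), and without control replicate 4 it was 0.11. The highest peak began within a span of 56 bases in all 8 libraries, the narrowest span of the 8 regions. Junb region 1 was also the shortest of them (491 bases), which bounds that span. Its z was 19.9, 42.2, 11.6 and 49.5 in controls and 36.2, 22.6, 46.9 and 66.6 in conditioned libraries, which overlapped (difference 12.2, SE 12.9; exact permutation p = 0.400).

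Junb region 4, at 87513908 to 87514739 and 9419 bases beyond region 3, was the region in which the groups came apart. The controls had 2.14, 3.52, 2.83 and 1.94 CPM and the conditioned libraries 6.38, 7.36, 4.18 and 5.03 CPM. Every conditioned library was above every control. The means were 2.61 ± 0.719 and 5.74 ± 1.41 CPM (SD, n = 4 each), and the log2 fold change was 1.14 (SE 0.47). The edgeR unadjusted p was 0.0282 and the adjusted p 0.613, so the region did not pass the test, and 1.81% of all regions had a log2 fold change at least as high. The estimate ran from 0.99 to 1.32 with 1 library left out, and it was 1.06 against control replicates 2 and 4 alone and 1.79 with region totals alone. The edgeR unadjusted p was above 0.05 without control replicate 4 (0.060), without conditioned replicate 1 (0.067) and without conditioned replicate 2 (0.069). It stayed below 0.05 with any other library left out. Against control replicates 2 and 4 alone it was 0.063, and the unadjusted p of voom was 0.052. Its highest z was 9.43, 33.5, 14.2 and 21.4 in controls and 63.3, 41.3, 58.2 and 81.0 in conditioned libraries, again without overlap. The difference of 41.3 (SE 9.70) had an exact permutation p of 0.0286, the smallest that 4 against 4 allows, and an adjusted p of 0.392. With 1 library left out, and so fewer arrangements, the exact permutation p was 0.057 without control replicate 1, 3 or 4. It was 0.0286 without any other library. Against control replicates 2 and 4 alone the difference was 33.5 (exact permutation p = 0.133). Counts and z come from the same reads and are not independent. Ranked within each library, z stood at percentile 17.6 on average in control and 55.7 in conditioned libraries (exact permutation p = 0.0286, adjusted p = 0.805). At z of at least 30 the region had a peak in 1 control and 4 conditioned libraries. Every region on the list has at least 4 such libraries, so the 4 conditioned ones sufficed to list this region. The split in z and the test on it thus rest on values that also decided the listing, and they serve as description only. Since Hook2 follows Junb in gene order on GRCm38.p6 and this region lies at the edge of the window, its gene was not assigned.

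Between Junb regions 3 and 4 a cluster at 87509891 to 87509989 passed z 30 off the list in 3 libraries, all conditioned (37.3, 38.0 and 58.1 in replicates 1, 3 and 4). Conditioned replicate 2 had 9.87 there. The controls had 24.4, 29.0, no peak and 7.49 in replicates 1 to 4, so the groups overlapped. In the whole Junb window, the number of peaks at z of at least 30 was 2, 5, 1 and 3 in controls and 7, 4, 8 and 7 in conditioned libraries, a mean of 2.75 ± 1.71 against 6.50 ± 1.73 (SD, n = 4 each). It was 2.25 ± 2.22 against 2.50 ± 1.73 in the Fos window, 0.75 ± 0.957 against 1.75 ± 1.26 in the Fosb window and 1.25 ± 0.500 against 1.75 ± 0.500 in the Jun window. The libraries with few strong peaks over the whole table were also low here, with 2 and 1 at Junb in control replicates 1 and 3, and the part of library strength in these numbers was not tested.

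**Figure D3:**
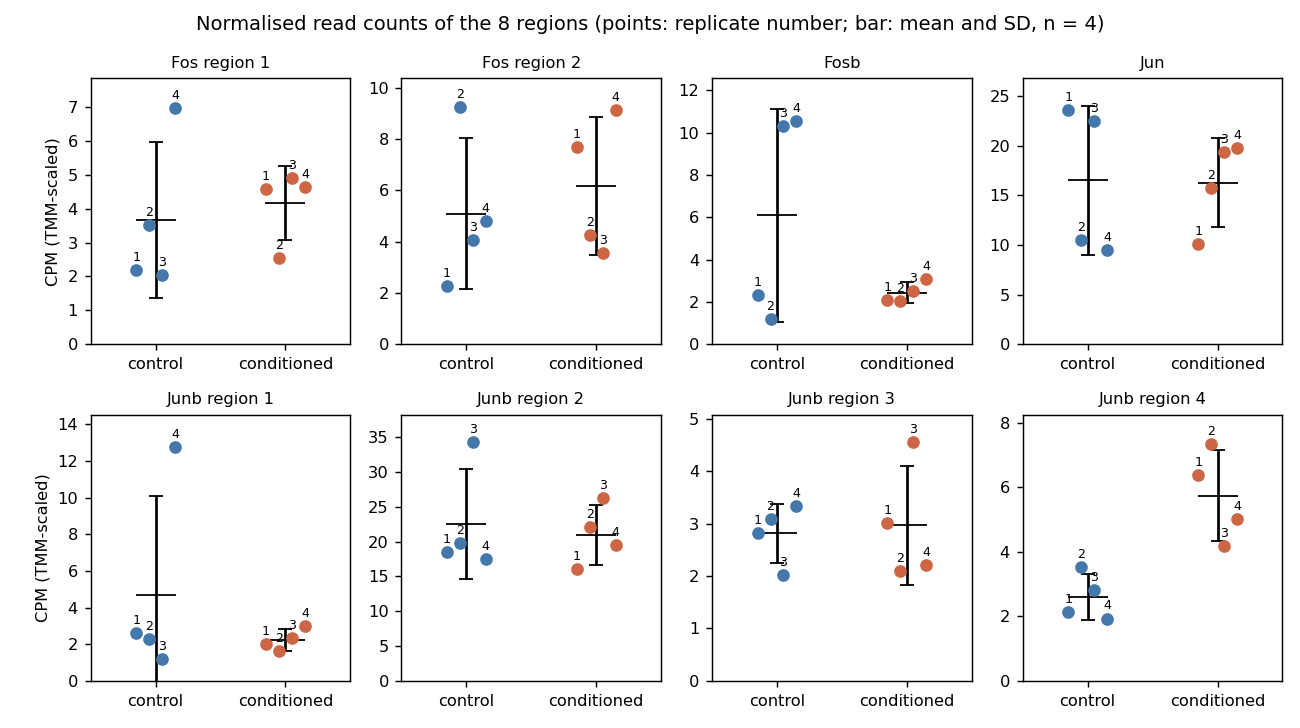
TMM-scaled CPM (vertical axis) of each of the 8 regions in the 4 control and 4 conditioned libraries, with replicate numbers beside the points and bars for mean and SD. Only in Junb region 4 do all conditioned points lie above all control points, and at Fosb control replicates 3 and 4 lie above the other 6 libraries.

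**Figure D4:**
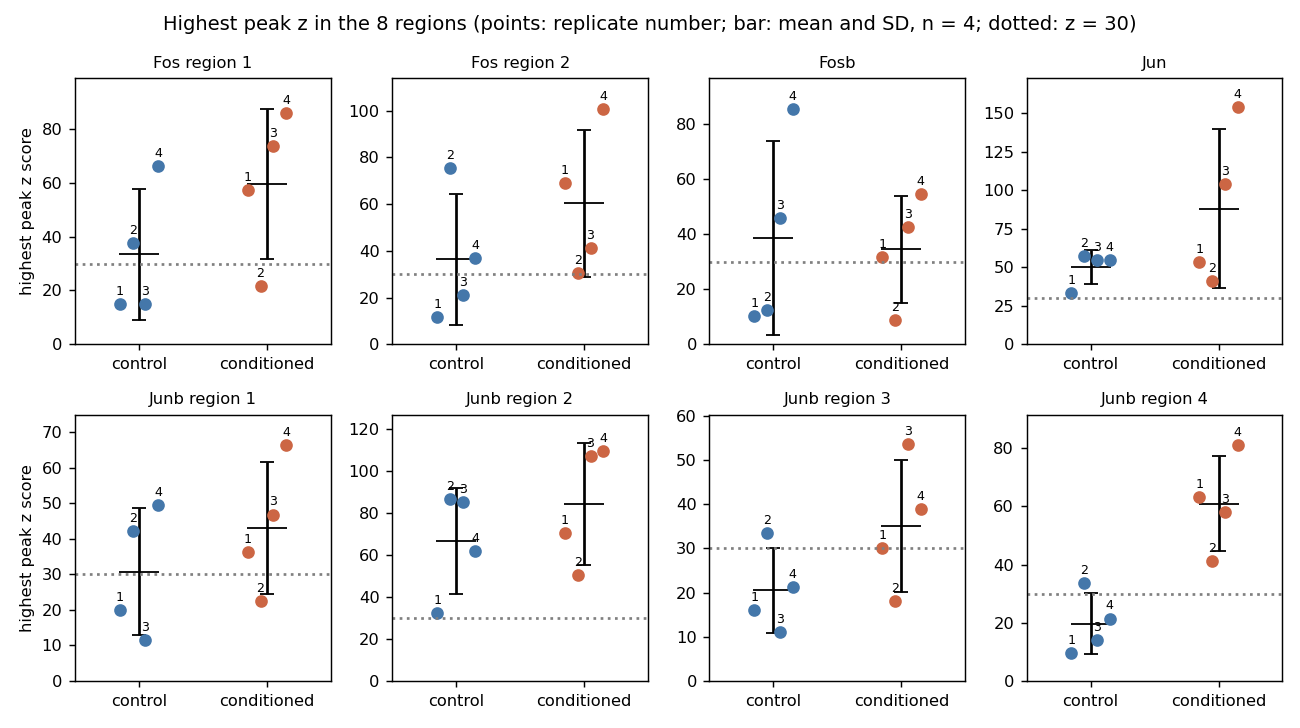
Highest z of a peak (vertical axis) in each region and library, with replicate numbers beside the points, bars for mean and SD and a dotted line at z = 30. Jun and Junb region 2 have all 8 points above the line, and Junb region 4 has 4 conditioned points and 1 control point above it.

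Of the 8 regions 0 had an adjusted p below 0.05 in edgeR (quasi-likelihood, Benjamini-Hochberg over the table), against 0.00% of all 11304 regions. At unadjusted p below 0.05 there was 1 higher region, Junb region 4, against 1.76% of all regions, and 0 lower ones, against 6.03%; in either direction 7.79% of all regions had such a p. DESeq2's Wald test called 0 of the 8 at adjusted p below 0.05, against 0.354% of all regions (40, of which 38 were lower), and limma's voom called 0 of the 8, against 0.00%. Groups of CPM values did not overlap in 1 of the 8 with conditioned libraries higher, against 1.50% of all regions, and in 0 of the 8 with conditioned libraries lower, against 0.902%. For the highest z this was so in 1 of the 8 with conditioned libraries higher, against 6.24% of all regions, and in 0 of the 8 with conditioned libraries lower, against 0.0265%. An exact permutation p below 0.05 for z was reached by 1 of the 8, against 6.26% of all regions, and an adjusted one by 0 of the 8, against 0.00%. The log2 fold change was above 0 in 4 of the 8, against 46.4% of all regions. Its median was 0.027 over the 8 and -0.049 over all regions, and the 8 values ran from -1.32 to 1.14, where the 5th and the 95th percentile of all regions were -1.37 and 0.82.

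The mean z was higher after conditioning in 7 of the 8 regions, and so it was in 93.7% of all regions. The median difference was 20.9 over the 8 and 23.9 over all regions. Likewise 6 of the 8 had a peak at z of at least 30 in more conditioned than control libraries, against 81.0% of all regions. Higher scores after conditioning were thus about as common over the whole table as at these loci. Conditioned replicate 4, the library with the most counts, had the highest z in 6 of the 8 regions, and control replicate 1 had the lowest in 5.

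**Figure D5:**
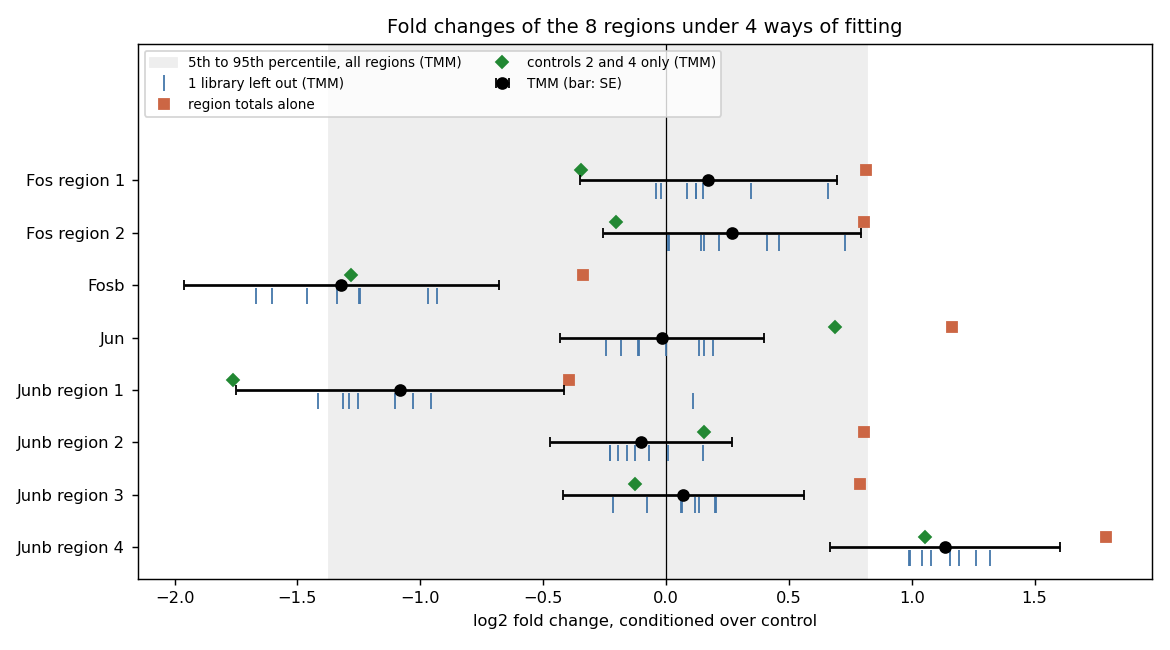
Log2 fold change, conditioned over control (horizontal axis), of the 8 regions with all libraries under TMM scaling (black, bar for SE), with 1 library left out (blue ticks), with control replicates 2 and 4 alone (diamonds) and with region totals alone (squares); the grey band runs from the 5th to the 95th percentile of all regions. Junb region 4 stays above 0 and Fosb below 0 in all of these fits, and each of the other 6 crosses 0 in at least 1 fit.

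The 8 regions did not move together over the 8 libraries. Across their 28 pairs, Pearson's r of log2 CPM ran from -0.62 for Fos region 1 with Jun to 0.74 for Fos region 1 with Junb region 1. The Fos regions had r = 0.44 with each other and Jun had r = 0.60 with Junb region 2. These are descriptions over 8 libraries that share their scaling. The regions elsewhere whose levels were most like each locus were picked as the highest of all regions, so a high r follows from the choice. For Fos region 2 they were on chromosome 15 at 84493401 to 84493855, chromosome 8 at 124984322 to 124984889 and chromosome 2 at 71711021 to 71711721 (r = 0.97, 0.97 and 0.96). For Fosb they were on chromosome 9 at 72772735 to 72773885, chromosome 5 at 37418901 to 37420557 and chromosome 8 at 12430280 to 12431630 (r = 0.99, 0.95 and 0.94). For Jun they were on chromosome 12 at 72931945 to 72932995, chromosome 5 at 111081485 to 111083093 and chromosome 4 at 62180672 to 62181192 (r = 0.96, 0.96 and 0.95). For Junb region 2 they were on chromosome 9 at 31839435 to 31840785, chromosome 6 at 120480022 to 120481622 and chromosome 18 at 67624213 to 67624863 (r = 0.98, 0.94 and 0.94).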

How the data were processed

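Sono-seq libraries of 8 mouse hippocampi were read from a table of raw counts, as deposited by the authors for 11304 regions, a table giving the average z score of each region and its carriers (4 to 8), and 8 peak lists. The z score of each peak is as deposited by the authors, on a scale that the files do not explain. Per the submitters' processing notes, Bowtie2 and mm9 were used; no source used here names the peak caller, the counting tool or the read filters. In each of the 11304 regions the carriers equalled the libraries reaching z 30, so the list favours regions strong in the better libraries. Between 75.1% and 81.3% of peaks have equal start and end, read as 50 bp steps. Coordinates are as deposited, and 0 count columns were left unused.

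Counts were fitted over the whole table with edgeR 4.0.16 in R 4.3.3 (quasi-likelihood test, group only, TMM, two-sided, filterByExpr with minimum count 10, which removed 0 regions). The SE is the log2 fold change over the root of F. The highest z per region was compared by exact permutation over 70 arrangements, two-sided, for every region and adjusted over all. Peaks of all libraries within 100 bases were merged into clusters. Both tests were tested on simulated data. All regions in the windows and every cluster off the list above z 30 are named. Alternatives were DESeq2 1.42.0, limma 3.58.1, other scalings, filters, a replicate block, libraries left out, other z minimums and, added after seeing the data, control replicates 2 and 4 alone. The loci, motifs and lists were chosen with earlier results of these data known. Log2 CPM for correlations used a prior count of 2. The labels number separate replicates, read here as separate animals, so p-values reflect animals and library preparation jointly. Python 3.11.15, numpy 2.4.6, pandas 2.3.3, scipy 1.17.1 and matplotlib 3.10.9 were used.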

Additional observations from a re-analysis of the deposited data

Results flagged for a closer look

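In each group of 4 libraries, the distance of an extreme value from the nearest other value was divided by the range (Dixon's test). Of 40 groups (CPM and highest z of the 8 regions and the number of peaks in the 4 windows), 4 passed its 95% critical value, and chance gives about 1 in 20. In Fos region 1, conditioned replicate 2 had 2.54 CPM, below the 4.59 to 4.90 CPM of the other conditioned libraries. In Junb region 1, control replicate 4 had 12.8 CPM against 1.17 to 2.60 CPM in the other controls. In Junb region 2, control replicate 3 had 34.3 CPM against 17.5 to 19.8 CPM. At Jun, control replicate 1 had a highest z of 33.4 against 54.8 to 57.6 in the other controls.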

How the results depend on the processing

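The count of 0 of 8 regions at adjusted p below 0.05 was also found in the other fits of the counts. Over the whole table DESeq2's Wald test called 40 regions, region totals alone 6 and the remaining fits 0. For z, regions at the smallest p that 4 against 4 allows, 0.0286, had an adjusted p of 0.392 in this table, so the 0 there says nothing about stability. With peaks that cover 50% of a region, 0 of the 8 had more conditioned than control carriers, where the main count was 6. Over the whole table such regions went from 9151 to 3898 of 11304. The count of 6 thus did not hold under this setting. Between 75.1% and 81.3% of all listed peaks are single 50 bp steps, and the shortest of the 8 regions has 491 bases. The setting uses only peaks at z of at least 30, whose widths were not measured. How much of the fall comes from peak width was not tested.

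The log2 fold change turned in direction as follows. At Jun it was 0.054 with upper-quartile factors, 1.16 with region totals alone, 0.21 with voom, 0.065 with the replicate block and 0.69 with control replicates 2 and 4 alone. In Junb region 1, -1.08 became -0.39 with region totals alone, -0.59 with voom and -0.52 with the replicate block, with no change of direction. Control replicates 2 and 4 alone gave -0.35 and -0.20 in Fos regions 1 and 2, 0.16 in Junb region 2 and -0.13 in Junb region 3. Junb region 2 had 0.81 with region totals alone, and Junb region 3 had -0.032 with voom. Region totals alone moved the median of all regions to 0.75. With 1 library left out, the log2 fold change ran from -0.041 to 0.66 in Fos region 1, from 0.0097 to 0.73 in Fos region 2, from -1.67 to -0.93 at Fosb, from -0.24 to 0.19 at Jun, from -1.42 to 0.11 in Junb region 1, from -0.23 to 0.15 in Junb region 2 and from -0.21 to 0.20 in Junb region 3. The difference in z ran from -13.6 to 11.5 at Fosb. As a percentile within the library it was -0.46 at Jun and -13.3, -5.90 and -2.54 in Junb regions 1 to 3, and against control replicates 2 and 4 it was -2.81 in Junb region 1. For these too the cause was not tested.

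The replicate numbers are shared by both groups, and the labels number replicates 1 to 4 as 1, 4, 6 and 9 in both. Same-numbered libraries deviated together with r of 0.161, 0.048, -0.063 and 0.272. Only the libraries of replicate 4 were each other's closest match under the same number. Such values cannot exclude a pairing of the animals, and the main fit did not use one. With the replicate block 0 of 8 regions were called (662 regions of the table at unadjusted p below 0.05, against 881). The other count filters removed no region.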
